A study of Mus musculus with 9 samples.

Results

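The genes described here serve the entry and exit of secretory proteins at the endoplasmic reticulum (ER). They are Ssr3, Sec31a, Sec22c, Lman2 and Tmed9, and what was measured is where the transcription factor XBP1 was bound around them in mouse liver. The members were chosen by 5 windows of the mm9 genome, 1 per gene and 20 to 70 kb long, from each list of XBP1 peaks taking those with their midpoint inside. Of the 64078 peaks in the 8 lists of the series, 52 lay in these windows. The windows had been picked with the peak scores known, so scores, ranks and the presence of a peak are given below as a description of these libraries, with no test.

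XBP1 was immunoprecipitated with the antibody M-186 from formaldehyde-fixed liver of wildtype C57Bl6-J mice, and the DNA was sequenced. Unsilenced livers were basal, 6 h or 48 h after partial hepatectomy (PH6h, PH48h), or 6 h or 48 h after a sham operation (SHAM6h, SHAM48h). Basal, PH6h and PH48h livers were also sampled 7 days after silencing with an adenovirus that constitutively expresses a short hairpin RNA against Xbp1 (shXBP1). Clodronate liposomes had been given 24 h before the virus, and surgery was done at 8 weeks of age. The protocols also name a control virus, and whether unsilenced livers received it, or whether a library came from 1 mouse or a pool, is not given in the sources used here. Each condition had 1 library, so differences below have no replicate check. The lists held 22071 and 23087 peaks in PH6h and SHAM6h, between 2482 and 7212 in the other unsilenced libraries, 4325 in silenced PH6h, and 177 and 102 in silenced basal and silenced PH48h. Peak lists carry no expression values, so the tissue was not checked against marker genes.

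Proteins destined for secretion enter the ER through the Sec61 translocon, and those that are folded leave it in COPII-coated vesicles bound for the Golgi. When unfolded proteins build up, the sensor IRE1 splices the Xbp1 messenger RNA, and the resulting factor switches on genes for protein entry, folding, quality control and vesicle transport. Hepatocytes secrete most plasma proteins and depend heavily on this route. Ssr3 encodes a subunit of the translocon-associated protein complex, which sits beside the Sec61 channel. Sec31a encodes an outer-coat protein of COPII vesicles, and Sec22c a member of the Sec22 family linked to transport between ER and Golgi. Lman2 is a lectin that recognises high-mannose sugars on cargo glycoproteins, and Tmed9 belongs to the transmembrane emp24-domain family of cargo receptors that cycle between ER and Golgi.

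The 250 bases before the start of each gene are shown because they carry the short sequence ACGTG, the core that XBP1 is known to bind, or end beside it. They were matched by symbol to the RefSeq promoter table of GRCm38.p6 (5 of 5 genes), not read from peak positions. All lie on the minus strand of the assembly except that of Tmed9, all are written 5′ to 3′ along the gene, and capitals mark ACGTG on either strand.
Ssr3: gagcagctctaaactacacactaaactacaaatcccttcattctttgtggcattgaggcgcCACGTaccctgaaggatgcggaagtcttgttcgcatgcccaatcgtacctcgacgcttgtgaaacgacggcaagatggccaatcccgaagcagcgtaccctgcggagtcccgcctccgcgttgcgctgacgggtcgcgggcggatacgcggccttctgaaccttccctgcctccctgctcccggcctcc
Sec31a, first start: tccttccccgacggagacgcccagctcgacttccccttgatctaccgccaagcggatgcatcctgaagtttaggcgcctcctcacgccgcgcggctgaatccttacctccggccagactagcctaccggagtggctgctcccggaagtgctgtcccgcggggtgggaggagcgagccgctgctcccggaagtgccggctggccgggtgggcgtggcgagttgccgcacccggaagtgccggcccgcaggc
Sec22c: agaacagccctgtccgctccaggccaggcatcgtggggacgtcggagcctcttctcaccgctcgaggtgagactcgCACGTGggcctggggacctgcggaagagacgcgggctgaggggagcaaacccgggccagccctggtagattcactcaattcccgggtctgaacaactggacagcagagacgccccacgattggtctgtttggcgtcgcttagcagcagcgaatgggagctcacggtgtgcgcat
Lman2: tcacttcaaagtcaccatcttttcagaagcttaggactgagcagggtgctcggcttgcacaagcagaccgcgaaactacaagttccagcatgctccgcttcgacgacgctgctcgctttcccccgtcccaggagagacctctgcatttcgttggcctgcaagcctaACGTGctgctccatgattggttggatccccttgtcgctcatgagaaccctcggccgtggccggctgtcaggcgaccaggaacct
Tmed9: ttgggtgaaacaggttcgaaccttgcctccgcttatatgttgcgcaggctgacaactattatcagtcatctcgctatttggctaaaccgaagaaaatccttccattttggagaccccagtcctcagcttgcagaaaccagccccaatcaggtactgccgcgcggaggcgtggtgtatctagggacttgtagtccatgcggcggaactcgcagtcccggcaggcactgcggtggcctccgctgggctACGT
Positions count from the start, whose first transcribed base is 1. In Ssr3 the match began at -189, in Sec22c at -174 and -173 as a palindrome read on both strands, and in Lman2 at -84. Tmed9 had it at -4, so that it crosses the start. Sec31a had none in the stretch printed. It held 1 match at 15, after this start and 1 at -68 from a second annotated start, shown here with their flanks and with that of Tmed9.
Sec31a, after the first start: gcggctgcCACGTtggagcgg
Sec31a, before the second start: tcatatgtACGTGgaacttac
Tmed9, across the start: gctgggctACGTGgctcggca

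In these promoters ACGTG stood in the 250 bases before a start in 4 of the 5 genes, in Sec31a through its second start alone, and in 5 of 5 when the 50 bases after the start were included. Over all 32851 promoters of the table the share was 16.6%, and it was 20.0% of the 17491 protein-coding genes when any of a gene's starts counted. CCACG, the part of the ER stress response element (ERSE) that binds ATF6 or XBP1, was found in all 5 genes, against 35.5% of protein-coding genes. Both motifs were searched on both strands, and they overlap where they join to CCACGT. They do so before the start in Ssr3, Sec22c and the second start of Sec31a. The same holds across the start of Tmed9 and after the first start of Sec31a. CCACGT was searched after the members' promoters had been seen: Ssr3, Sec22c and Sec31a held it before a start, against 8.75% of protein-coding genes. With the 50 bases after the start included, 4 of 5 genes held it, against 10.3%. None of the 5 held TGACGTG, the longer core of the UPR element, which 2.08% of protein-coding genes carried. The whole ERSE (CCAAT and CCACG with 9 bases between them) was found in 0.154% of protein-coding genes and ERSE-II, by its usual consensus, in 0.0515%, and in none of the 5. GC content of the stretch printed ran from 55.6% in Tmed9, equal to the median of protein-coding promoters, to 69.6% in Sec31a. The stretch before the second start of Sec31a, which is not printed and holds its ACGTG, had 38.8%.

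The search was repeated in 70 genes of the translocon, signal peptide handling and traffic between ER and Golgi. The list contains the 5 members, and 57 of its genes had a promoter in the table. ACGTG was present in 26 of them (45.6%), CCACG in 36 (63.2%) and CCACGT in 18 (31.6%). Besides the members, ACGTG was found in Ssr1, a further subunit of the translocon-associated complex, in Sec62 and Sec63, which assist the Sec61 channel, and in Sec24a, Sec24b, Sec24c and Sec24d, the cargo-binding adaptors of the COPII coat. Among relatives of Tmed9 it was present in Tmed3, Tmed8 and Tmed10 but not in Tmed1, Tmed4, Tmed5 or Tmed6. Ssr4, Sec61a2, Sec61b, Sec61g, Sec23a and Sec23b also had none in the 250 bases before a start. TGACGTG was found in 5 genes (8.77%), namely Copb1, Kdelr3, Sec16b, Sec24d and Srpr. Promoters for Ssr2, Sec61a1, Tram1, Spcs3, Sec11c, Srp19, Srp68, Lman1, Tmed2, Tmed7, Tmed11, Arcn1 and Kdelr2 were not used here. A match describes the letters in this stretch and not a bound site.

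**Figure D1:**
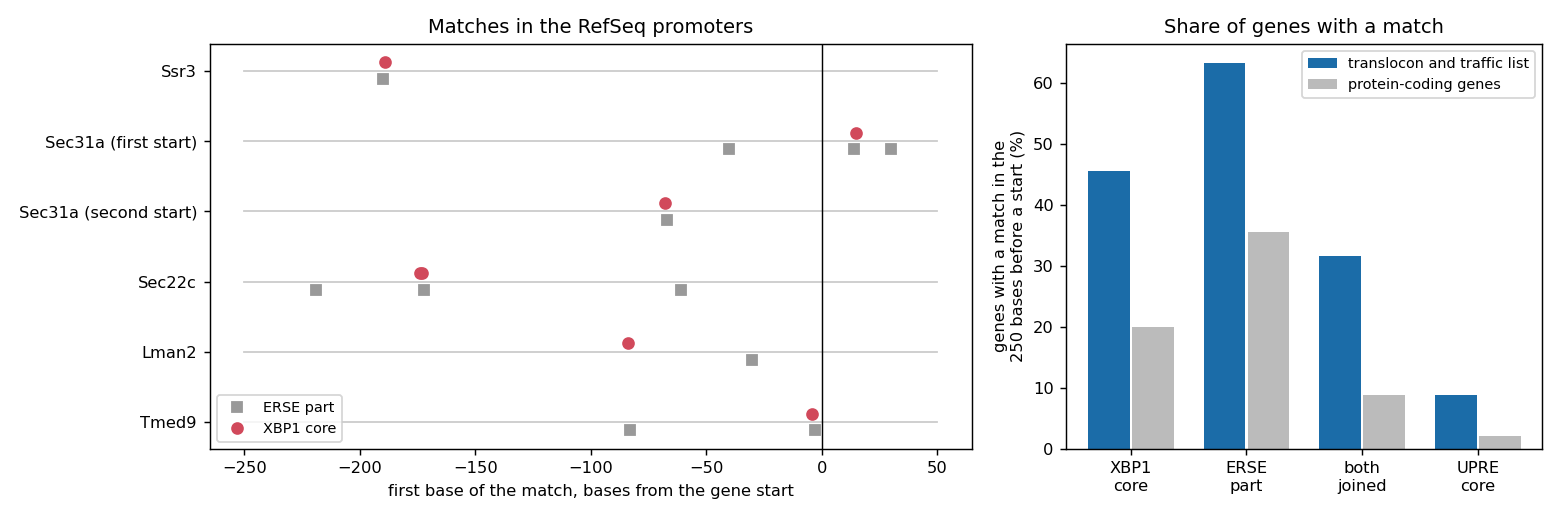
Left, first base of each match to the XBP1 core (ACGTG, circles) and to the ERSE part (CCACG, squares) in the 300 bases around the RefSeq gene starts, with the start at 0. Right, share of genes with a match in the 250 bases before a start for the 57 translocon and traffic genes and for 17491 protein-coding genes: the share is 45.6% against 20.0% for the core and 31.6% against 8.75% for both motifs joined.

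Each window held 1 dominant XBP1 site, called the leading peak where it has the highest score of the window in a list. The score is the authors' own value per peak, read as the −log10 of a p-value, a scale the sources used here do not state, and is comparable within a list alone. In all 5 unsilenced libraries every one of the 5 windows had such a peak. Sec22c, with the lowest of these leading scores in basal liver, still stood at rank 46 of 2482 peaks. Leading peaks were found in 35 of the 40 combinations of window and list, and all 5 gaps fell in the silenced basal and silenced PH48h lists. These lists held 177 and 102 peaks. Of all regions with a peak in each of the 5 unsilenced lists, 6.19% had one in silenced basal liver and 3.44% in silenced PH48h. Lman2 and Tmed9 had a leading peak in 8 of 8 lists, Ssr3 in 7, and Sec31a and Sec22c in 6.

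At the translocon subunit Ssr3, the basal leading peak lay at chr3:65196153-65196904 (mm9), with a score of 314 and rank 5. Its scores were 725 in PH6h (rank 7), 205 in PH48h (rank 7), 259 in SHAM6h (rank 24) and 343 in SHAM48h (rank 23). After silencing the scores were 10.1 in basal liver (rank 74 of 177) and 186 in PH6h (rank 27 of 4325), and PH48h had no peak. Ssr3 was thus within the first 24 peaks of every unsilenced list. In the GRCm38 annotation its protein-coding neighbours are Kcnab1 and Tiparp. Since no mm9 annotation was used here, peaks are tied to a gene by its window alone, and their place relative to starts, exons and introns was not determined for any of the 5 genes.

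At the COPII coat gene Sec31a, the basal leading peak lay at chr5:100844890-100845887 with a score of 164 (rank 39). The scores were 556 in PH6h (rank 45), 149 in PH48h (rank 41), 217 in SHAM6h (rank 69) and 194 in SHAM48h (rank 68). Of the silenced libraries, PH6h alone had a peak there, with a score of 115 (rank 68), and silenced basal and PH48h had none. Its neighbours are Tmem150c and Lin54.

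Sec22c showed the same pattern of presence. The basal leading peak lay at chr9:121627891-121628451 with a score of 145 (rank 46), followed by 477 in PH6h (rank 67), 173 in PH48h (rank 21), 209.6 in SHAM6h (rank 82) and 189 in SHAM48h (rank 73). Silenced PH6h had a score of 65.2 (rank 181), and the other silenced libraries had no peak in the window. Sec22c lies between Vipr1 and Ss18l2.

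The lectin Lman2 carried its basal leading peak at chr13:55463828-55464592, with a score of 259 and rank 14. Scores were 583 in PH6h (rank 35), 215 in PH48h (rank 4), 279.6 in SHAM6h (rank 12) and 293 in SHAM48h (rank 33). A peak was present in every silenced library, with scores of 20.5 in basal liver (rank 18 of 177), 172 in PH6h (rank 32 of 4325) and 11.5 in PH48h (rank 30 of 102). Lman2 lies between Mxd3 and Rgs14.

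The cargo receptor Tmed9 is on the same chromosome, with its PH6h leading peak 231 kb from that of Lman2. In basal liver the peak lay at chr13:55694075-55694803 with a score of 152 (rank 42). Scores were 692 in PH6h (rank 11), 151 in PH48h (rank 37), 255 in SHAM6h (rank 28) and 235 in SHAM48h (rank 53). Silenced libraries had scores of 10.1 in basal liver (rank 74 of 177), 86.1 in PH6h (rank 114 of 4325) and 10.0 in PH48h (rank 41 of 102). Its neighbours are Fam193b and B4galt7.

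**Figure D2:**
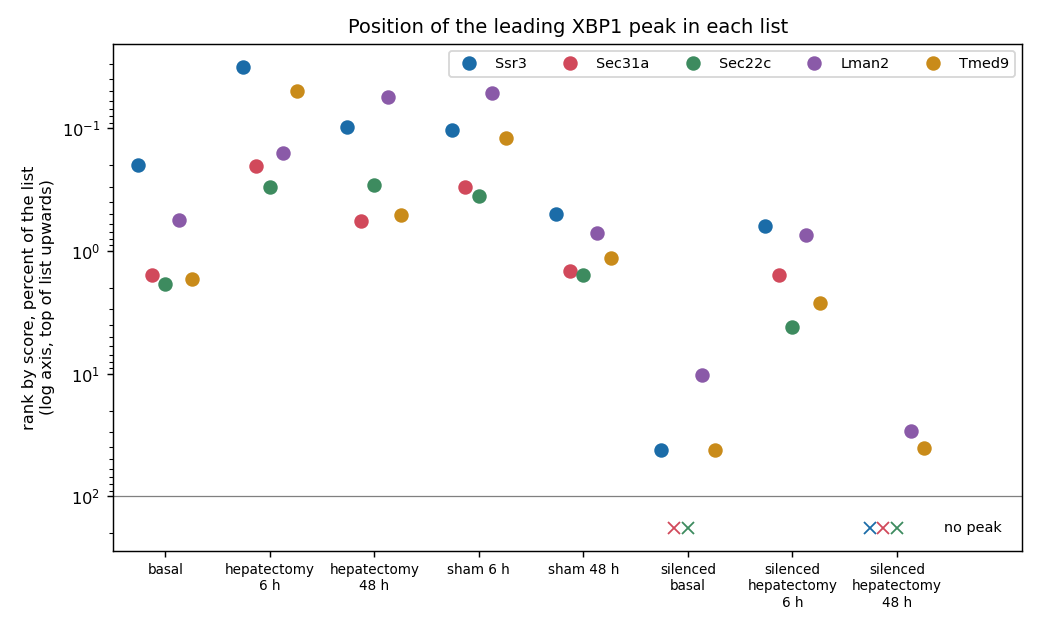
Rank of the leading peak of each gene within each list, as a percent of the list's peaks on a log axis with the top of the list upwards; crosses mark lists without a peak in the window. All unsilenced leading peaks lie in the first 1.85% of their list, those of silenced PH6h in the first 4.18%, and those of silenced basal and PH48h between 10.2% and 41.8%.

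Within the lists, the order of the 5 genes was similar but not fixed. Ssr3 scored highest in basal liver, PH6h, SHAM48h and silenced PH6h, and Lman2 in PH48h, SHAM6h, silenced basal and silenced PH48h. Sec22c scored lowest in 4 of the 5 unsilenced lists, and in PH48h it scored above Tmed9 and Sec31a. Tmed9 scored below Lman2 and Sec31a in basal liver and above both in PH6h. In silenced basal liver Ssr3 and Tmed9 had the same score. A single library stands behind each order, and the lists differ in length, so no change in binding can be read from these orders.

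Leading peaks were broad for their lists in the unsilenced libraries. In basal liver, PH48h and SHAM48h all 5 were among the widest 10% of the peaks, which begin at 529, 520 and 609 bp. In PH6h and SHAM6h 4 of 5 were, the exception being Sec22c, with 800 bp against 804 bp and 733 bp against 748 bp. Ssr3 had the widest peak of the members in each unsilenced list except basal liver, from 1435 bp in SHAM48h to 1973 bp in SHAM6h. Sec31a was the widest in basal liver with 998 bp. In silenced PH6h 4 of 5 leading peaks were in the widest 10%, but 0 of 3 were in silenced basal liver and 0 of 2 in silenced PH48h, and 85.9% of the silenced basal peaks were at least as wide as that of Tmed9. Width went with score over each unsilenced list as a whole, with Spearman's rho from 0.65 to 0.73 across its peaks, so the widths are not independent of the ranks.

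Both 6 h peaks reached beyond the basal one mostly on 1 side at Ssr3, Lman2 and Sec22c, and on both sides at Tmed9 and Sec31a. Compared with basal liver, the PH6h peak of Ssr3 reached 797 bp further towards lower coordinates and 75 bp further towards higher ones, and that of SHAM6h 1113 and 108 bp. At Lman2 the PH6h peak reached 680 bp further down and 163 bp further up, and SHAM6h 654 and 40 bp. At Tmed9 the reach was 108 bp and 203 bp in PH6h and 189 bp and 283 bp in SHAM6h. Sec22c reached 189 and 50 bp further in PH6h and 169 and 3 bp in SHAM6h, and Sec31a 189 and 120 bp in PH6h but 74 and 176 bp in SHAM6h. The side extension of Ssr3 covers a weaker neighbour that was called on its own in 2 lists: in basal liver it lay at chr3:65195534-65195939 with a score of 19.3, 213 bp from the leading peak, and in silenced PH6h it scored 20.0, with a gap of 297 bp. In PH6h, PH48h, SHAM6h and SHAM48h 1 peak covered both. Such joining of at least 2 basal peaks was seen in 1.16% of the PH6h peaks with a basal counterpart. At Lman2 a similar weak peak in PH48h (chr13:55463544-55463813, score 15.0) lay inside the leading peaks of PH6h, SHAM6h and SHAM48h.

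Leading peaks of a gene overlapped between libraries, apart from the silenced basal and silenced PH48h peaks of Tmed9. The lists give extents and no summits, so where the signal was highest within a peak is not known. Leading peaks of the 5 unsilenced lists had a stretch in common of 752 bp at Ssr3, 677 bp at Sec31a, 557 bp at Sec22c, 639 bp at Lman2 and 716 bp at Tmed9. With the silenced lists included, the common stretch was 633 bp at Sec31a, 474 bp at Sec22c and 348 bp at Ssr3. For Lman2 it narrowed to 133 bp, the whole of the silenced PH48h peak. Tmed9 had none, because the peaks of silenced basal liver (60 bp) and silenced PH48h (97 bp) lay 160 bp apart, both inside the 536 bp peak of silenced PH6h. Midpoints at Sec22c differed by at most 94.5 bp over 6 lists, and at Ssr3 by up to 647.5 bp over 7 lists.

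**Figure D3:**
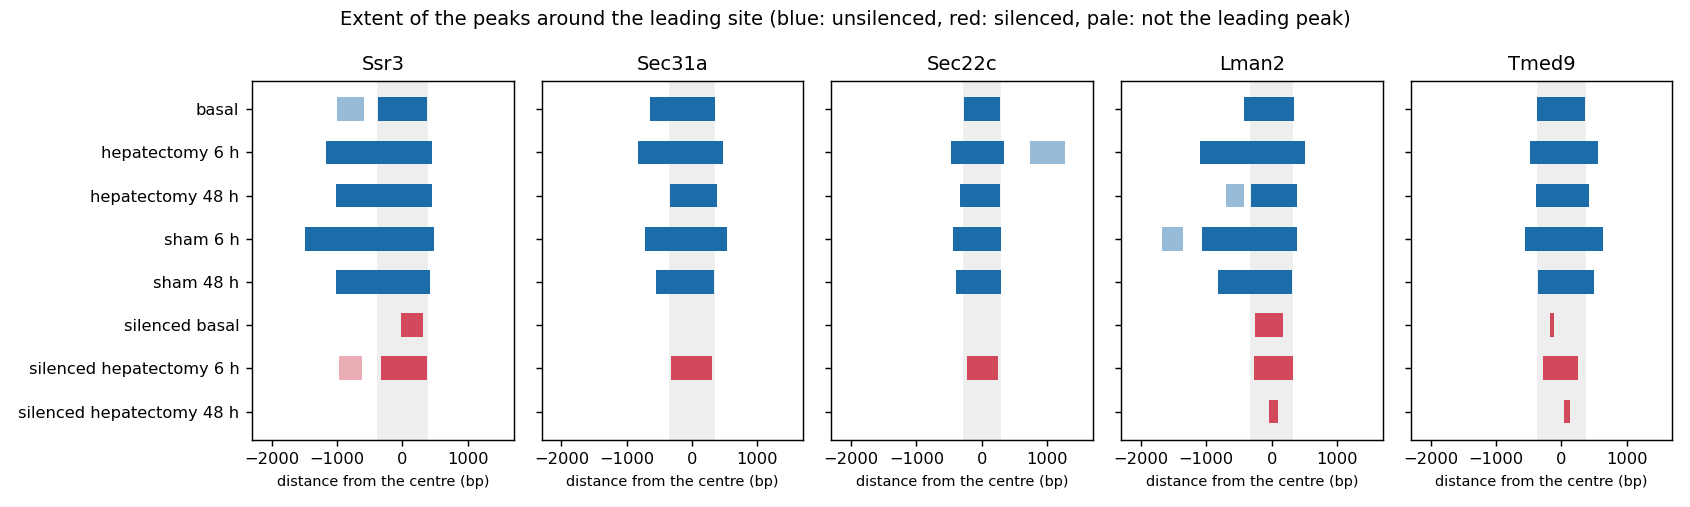
Extent of the peaks around the leading site of each gene, in bp from the centre of the stretch shared by the 5 unsilenced lists (grey), with lower coordinates to the left; blue bars are unsilenced lists, red bars silenced lists, and pale bars weaker peaks. The red bars lie inside the blue bars of the same state, and the PH6h and SHAM6h bars of Ssr3 and Lman2 reach to the left.

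Each state was compared with its silenced liver, as a control for the antibody signal. Virus and clodronate are recorded for the silenced livers alone, so their effects and that of silencing cannot be told apart. Peaks were counted as counterparts where they overlapped by at least 1 bp. In basal liver Ssr3, Lman2 and Tmed9 had a counterpart and Sec31a and Sec22c did not, 3 of 5 leading peaks. Over all basal peaks the share was 4.75%, but the members are among the strongest, and 81.0% of the 100 highest-scoring basal peaks had a counterpart. In PH6h all 5 leading peaks had one, as did 100.0% of the 100 highest-scoring peaks, against 18.9% of the whole list. In PH48h Lman2 and Tmed9 had a peak and Ssr3, Sec31a and Sec22c did not, against 51.0% of the 100 highest-scoring and 0.915% of all peaks. In each state the members' share was at or below that of the 100 highest-scoring peaks.

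Another background is the set of regions with a peak in all 5 unsilenced lists, which made up 6.62% of the regions obtained by merging these lists, and to which all 5 leading sites belong. Of these regions, 6.19% had a peak in silenced basal liver, 82.5% in silenced PH6h and 3.44% in silenced PH48h, and 2.85% had one in all 3. Lman2 and Tmed9 were among the last. The regions were not matched to the members for score, and leading peaks rank high, so these shares are not a like background. The silenced peaks at the 5 genes were smaller than their unsilenced counterparts and lay wholly inside them in 10 of 10 cases. Over whole lists 86.4% of the silenced basal, 90.0% of the silenced PH6h and 74.5% of the silenced PH48h peaks lay wholly inside an unsilenced one. At Ssr3 the PH6h peak was 1624 bp wide unsilenced and 696 bp silenced, and at Tmed9 1040 and 536 bp. In basal liver the widths at Tmed9 were 729 and 60 bp, and the shortest peak of that silenced list had 53 bp, against 227 bp in the unsilenced list. Silencing and a shorter fragment length in peak calling cannot be told apart there, nor in PH48h, where the shortest peaks had 53 and 190 bp. When each peak had to cover 50% of the other, 1 window peak had its counterpart in basal liver, 2 in PH6h and 0 in PH48h. XBP1 left after silencing and other signal at these sites cannot be told apart either.

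**Figure D4:**
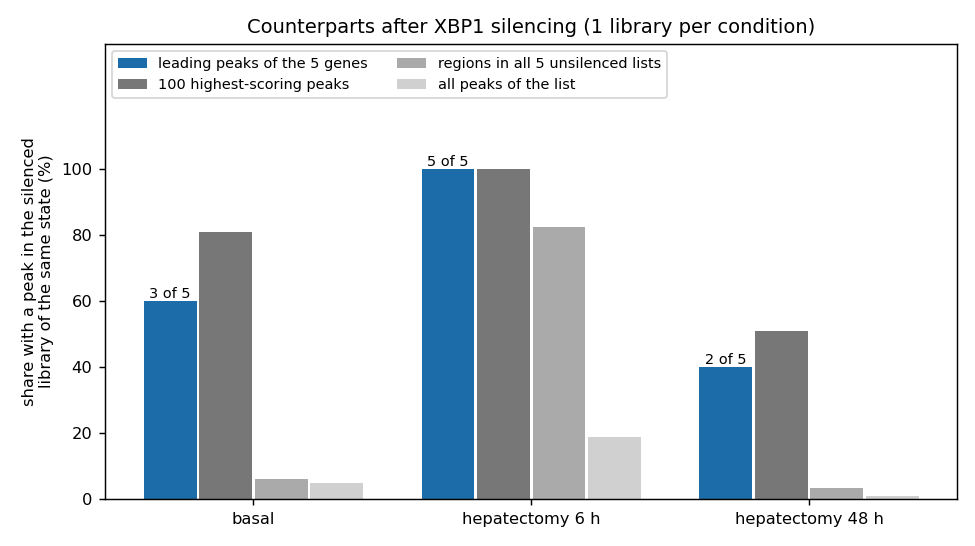
Share of peaks with a counterpart in the silenced library of the same state, for the leading peaks of the 5 genes, the 100 highest-scoring peaks, the regions found in all 5 unsilenced lists and all peaks. The members' 3, 5 and 2 of 5 lie at or below the shares of the 100 highest-scoring peaks (81.0%, 100.0% and 51.0%). Over all peaks the shares are 4.75%, 18.9% and 0.915%. The windows were picked with scores known, so all peaks are not a like background and no excess is read from them.

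The sham operation separates loss of liver tissue from the surgery, and at the leading sites both operations gave a peak at both times. Of the 10 window peaks of PH6h, 8 had a counterpart in SHAM6h, against 76.9% of the list, and 8 of the 10 SHAM6h window peaks had one in PH6h, against 74.1%. At 48 h, 7 of 9 PH48h window peaks had a SHAM48h counterpart (47.1% of the list), and 6 of 6 in the other direction (72.5%). The windows were picked with scores known and their leading peaks rank high. The list share is therefore not a like background, and no excess is read from it. Leading midpoints of PH6h and SHAM6h differed by 0.5 bp at Tmed9, 13.5 bp at Sec22c, 48.5 bp at Lman2, 85.5 bp at Sec31a and 141.5 bp at Ssr3. The median over all 17342 overlapping pairs was 43.5 bp. At 48 h the midpoints differed by 11.0 bp at Ssr3, 23.5 bp at Sec22c, 53.0 bp at Tmed9, 130.5 bp at Sec31a and 279.5 bp at Lman2, against a median of 46.0 bp over 3405 pairs. Lman2 and Sec31a thus had the largest shifts of the members at 48 h, and Ssr3 and Sec31a at 6 h. Leading peaks were wider than most of their lists, which leaves more room for a shift, so these medians are not a like yardstick.

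Over time, the leading sites were present in each unsilenced list and most weaker sites in operated livers alone. All 6 basal window peaks were overlapped in PH6h and in SHAM6h, against 98.3% and 98.4% of the basal list, and also in PH48h and SHAM48h, against 88.0% and 82.3%. Of the 10 window peaks of PH6h, 5 had a basal counterpart (10.9% of the list) and 7 a counterpart in PH48h (28.9%). The numbers were 5 of 10 for SHAM6h in basal liver (10.5%) and 6 of 10 in SHAM48h (19.4%). In the other direction 8 of 9 PH48h window peaks were found in PH6h (91.0%) and 6 of 6 SHAM48h window peaks in SHAM6h (97.7%). Both courses share the basal library. All peaks with a basal counterpart were the 5 leading ones, and none of the 5 weaker window peaks of PH6h or of SHAM6h had one. Leading peaks rank high in windows picked with scores known, so these list shares are not a like background either. Read numbers were not given, so fewer sites and a shallower library cannot be told apart.

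Weaker sites accounted for 17 of the 52 window peaks, and those outside the neighbour of Ssr3 were found in operated, unsilenced livers. Over whole lists, 10.9% of PH6h and 10.5% of SHAM6h peaks had a basal counterpart. In silenced PH6h 18.9% of the PH6h peaks had one. Most peaks of the 6 h lists thus lacked such counterparts too, and nothing particular to the weaker sites is read from this. Sec22c had the most weaker sites. Its site at chr9:121619149-121620146, 8.45 kb below the leading one in mm9 coordinates, was present in PH6h (score 76.5, rank 2042), PH48h (12.2), SHAM6h (40.7, rank 2857) and SHAM48h (14.2). A further site at chr9:121614182-121614728 had scores of 9.69 in PH6h, 9.35 in PH48h and 12.0 in SHAM6h. Neither had a peak in basal liver or in any silenced list, and most PH6h peaks likewise had none in basal liver or silenced PH6h. The first of these Sec22c sites is the strongest weaker site of the 5 windows: no peak of another weaker site scored above 20.0.

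Sec31a had a pair of weak sites. One, 35.8 kb below the leading peak, was found in both 6 h libraries with scores of 11.7 in PH6h and 7.97 in SHAM6h. The other, 3.19 kb below, scored 16.4 in SHAM6h and 9.35 in PH48h. Tmed9 had a single extra peak in PH6h, 6.9 kb above its leading site, with a score of 16.0. Lman2 had 1 extra peak in SHAM6h (9.92), and Sec22c 1 further peak in PH6h (10.7). At the edges of the windows, the peak nearest to an edge on the inside was that of Tmed9 in PH6h, 3.62 kb from it, and the nearest on the outside was a SHAM6h peak with a score of 12.2, 3.54 kb beyond the Sec31a window. The nearest peaks outside the other windows lay 8.41 kb (Lman2, score 30.3), 9.53 kb (Ssr3, 12.7), 19.1 kb (Tmed9, 9.92) and 47.4 kb (Sec22c, 16.1) beyond the edge.

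**Figure D5:**
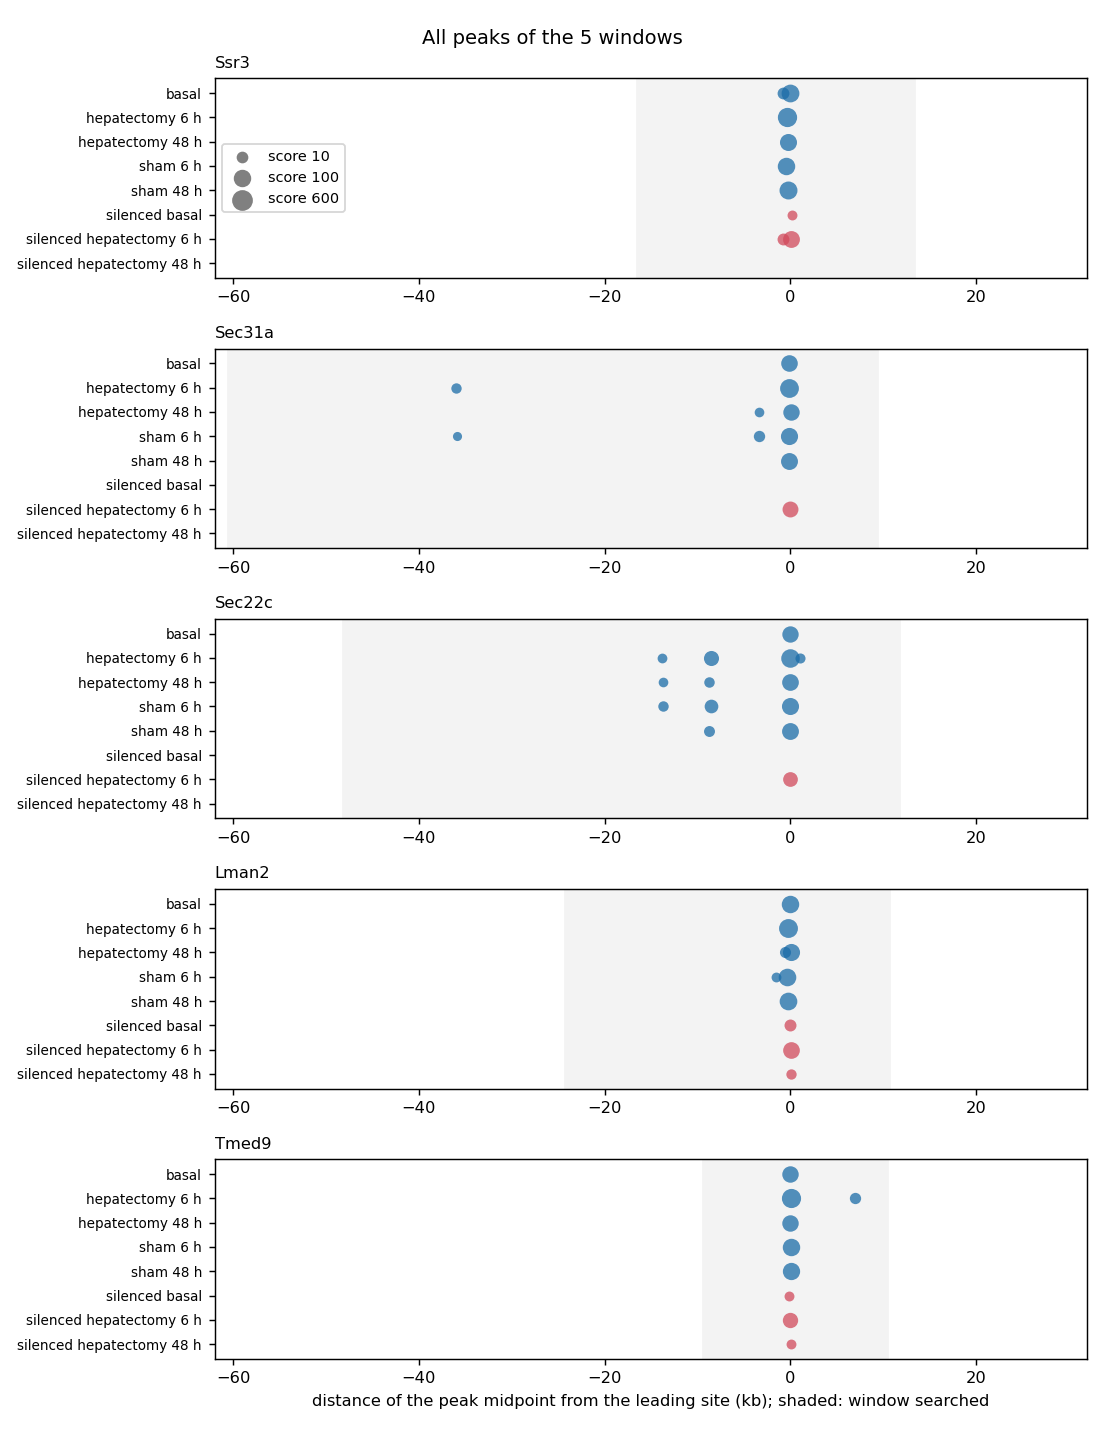
Midpoints of all 52 peaks of the windows by list, in kb from the leading site, with lower coordinates to the left; point area grows with the logarithm of the score, blue points are unsilenced and red points silenced lists, and the searched window is shaded. Every unsilenced list has a point at 0 for each gene. Points away from the leading site, other than those beside Ssr3, appear in operated and unsilenced livers. Over the whole PH6h list, 10.9% of peaks had a counterpart in basal liver and 18.9% in silenced PH6h.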

How the data were processed

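The deposited files are 8 lists of XBP1 ChIP-seq peaks, 1 per library, with 1 score per peak. Per the submitters' processing notes the authors used Bowtie2, MACS 1.4.2 and the mm9 build. Not given in the sources used here are settings, read numbers and the use of the input DNA, itself not analysed here. The authors' score was read as the −log10 of a p-value, a scale inferred because the lowest score of a list lay between 4.33 and 5.27, and was used within a list alone. MACS 1.4.2 usually writes 10 times that value. If that scale held, each score would stand for a weaker p-value, while ranks and overlaps would not change. Scores ran up to 828.25 in PH6h, and whether the score is a p-value at all is not stated either. Peaks with a midpoint in the windows were taken, written 1-based, and ranked by score, with ties sharing the better rank. In each window and list the highest-scoring peak was named, and weaker sites were named where at least 3 lists had them. Weaker sites in fewer lists were named after their values were seen. Overlap of at least 1 bp was counted for 17 ordered pairs of lists with Python 3.11.15, NumPy 2.4.6 and pandas 2.3.3, and plotted with matplotlib 3.10.9. Counting was tested on simulated data. Motifs were searched in the RefSeq promoter table of GRCm38.p6, and no coordinates were converted between builds. Members and lists were chosen with earlier results of these data known. No test was made, because the windows were chosen with these values known and no condition has a replicate library.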

Additional observations from a re-analysis of the deposited data

How the results depend on the processing

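Of 140 recomputed values, 122 stayed within 1.5 times the reported one. With a score of at least 20, 6 window peaks were left in PH6h, 5 in PH48h, 6 in SHAM6h, 1 in silenced basal liver and 0 in silenced PH48h. When each peak had to cover 50% of the other, the counterparts after silencing numbered 1 in basal liver, 2 in PH6h and 0 in PH48h. The same rule left 3 of the basal peaks in PH6h, 3 of the PH6h peaks in basal liver and 5 of the PH48h peaks in PH6h. With midpoints within 250 bp, 3 counterparts were left for PH6h in silenced PH6h, for basal liver in PH6h and in SHAM6h, and for PH6h and SHAM6h in basal liver. Unlike widths lower the counts under the 50% rule by construction. TGACGTG in place of ACGTG left 0 members and 5 genes of the longer list. Window size, merging, a score of at least 10 and equal list lengths moved no count beyond 1.5 times. Depth per library is unknown, so a missing peak does not show that a site was unbound.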
